A study of Oryza sativa with 6 samples.

Results

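Brassinosteroids are plant steroid hormones that promote the elongation of stems and leaf sheaths. They are built from sterols by a chain of cytochrome P450 enzymes and are bound at the cell surface by the receptor kinase BRI1. Binding of the hormone by BRI1 leads to inactivation of kinases of the GSK3 type, which frees transcription factors such as BZR1 to act. Rice mutants that lack the hormone or its receptor are dwarfs with erect leaves and short internodes, which is the background for following the pathway in a stem sample.

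The genes described here are 8 loci chosen by identifier. They comprise 4 synthesis enzymes (D2, D11, BRD1 and DWARF4), the receptor BRI1 (also called D61), the kinase GSK2 and the transcriptional regulators BZR1 and DLT. All 8 were read, among 27397 genes in the deposited table, and all 8 passed the filter on low values that left 24149 genes for testing. The RNA came from the basal 1 cm of untreated rice (Oryza sativa) plants, which holds stem and shoot apical meristem, at 20 days after germination with 16 h of light per day. The groups were Nipponbare wild type and pine1-1a, a single line in the Nipponbare background in which PINE1 is knocked out, with 3 samples of 8 pooled plants each. What kind of allele pine1-1a carries is not stated, and no label mentions separate sowings, so p-values speak to the spread between these pools alone.

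Recovered reads per library ranged from 27918842 to 36250239. PINE1 RNA (Os12g0617000) did not fall in the knockout libraries: it was higher, by 0.50 on the log2 scale (SE 0.10, limma adjusted p = 0.021), so "pine1" below means the libraries labelled so. The 5 meristem markers on the list were read in every library, with summed levels of 2036 to 2640 normalized reads in wild type and 3599 to 4476 in pine1. Of these, OSH1, OSH15 and OSH6 were called higher (log2 1.30, 1.08 and 0.78), while Os05g0129700 and Os03g0771500 did not pass (log2 -0.02 and -0.59, limma adjusted p = 0.95 and 0.23). The OSH6 call was lost without wild type replicate 3 or without any 1 pine1 library (adjusted p 0.052 to 0.080). The 3 leaf markers, Rubisco small subunit loci, were read in every library too. They summed to 1129 to 1376 in wild type and 1247 to 1318 in pine1. Os12g0291100 was called higher in pine1 (log2 0.41, limma adjusted p = 0.049). Os12g0274700 and Os12g0292400 did not pass (log2 0.27 and -0.25, limma adjusted p = 0.39 and 0.33). The Os12g0291100 call was lost when any 1 library other than pine1 replicate 1 was left out (adjusted p 0.11 to 0.14). A stricter filter (0.057) and a replicate block (0.051) ended it too. No marker on these lists was at 0 in any library.

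Which steps of brassinosteroid synthesis and signalling differ in RNA level when PINE1 is knocked out was asked of a single comparison, pine1 against wild type. None of the 8 genes passed limma's test at an adjusted p under 0.05, in either direction, where 6.46% of all genes tested passed (4.02% higher and 2.44% lower in pine1). edgeR and DESeq2 called 0 of the 8 as well, where they called 6.49% and 8.18% of all genes. At an unadjusted p under 0.05 there was 1 of the 8, BZR1, against 20.9% of all genes. The log2 fold changes of the 8 ran from -0.33 to 0.31, with 4 above and 4 below 0, a median of 0.03 and a median size of 0.12. Over all genes tested the median size was also 0.12, and 12074 of 24149 lay above 0. In a bulk sample, fewer cells of a type and less RNA per cell cannot be told apart.

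**Figure D1:**
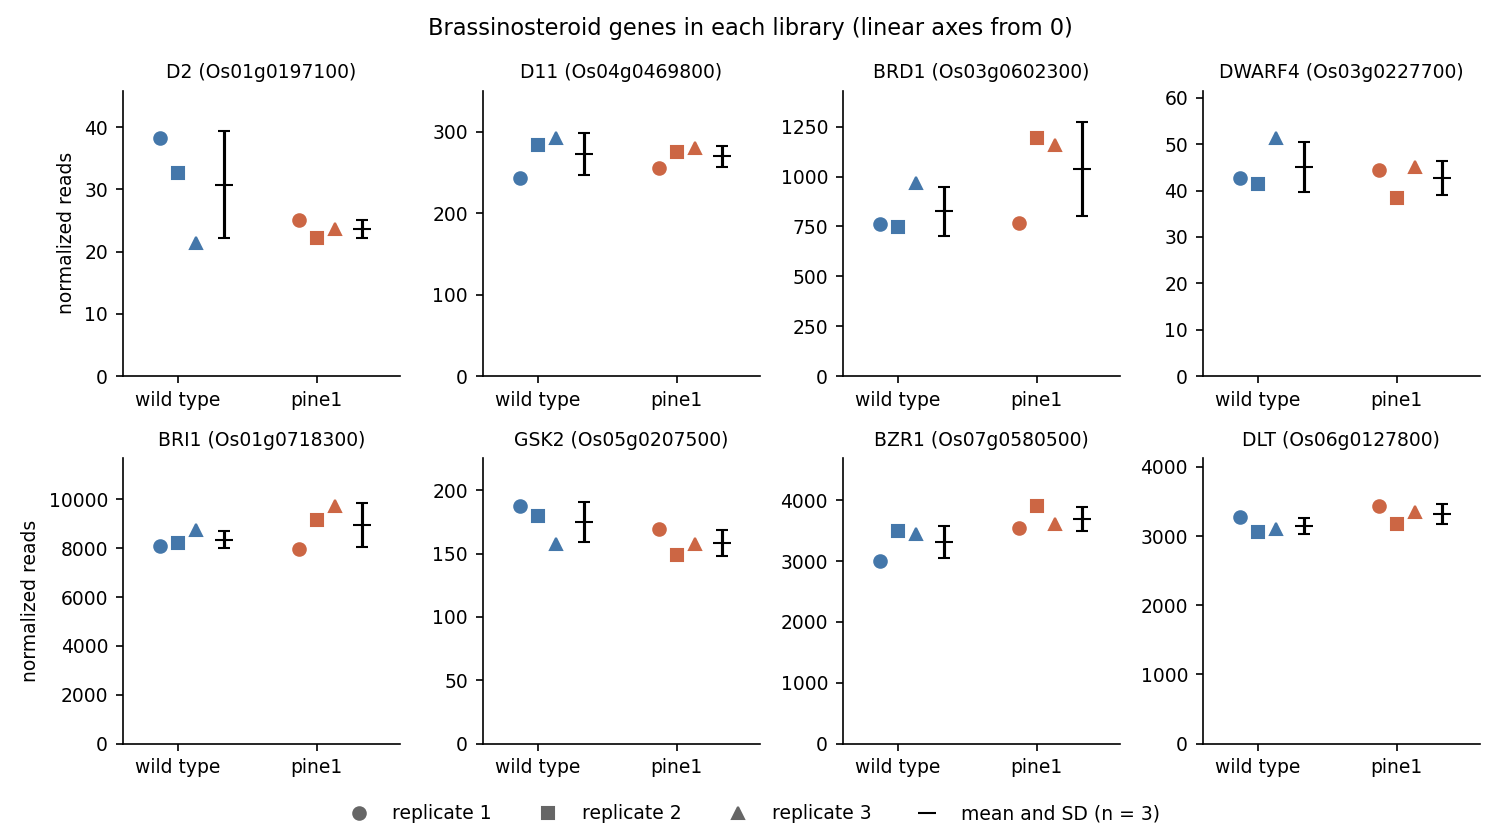
Normalized reads (linear axes from 0) of the 8 brassinosteroid genes in each of the 3 wild type and 3 pine1 libraries; symbols mark replicate numbers, and bars the mean and SD (n = 3). The genotypes overlap in 7 panels, and in the BZR1 panel the lowest pine1 value (3541) lies above the highest wild type value (3486).

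DWARF4 (Os03g0227700, chromosome 3) encodes a hydroxylase that acts early in the synthesis of the hormone. In order of replicate number, here and below, it had 42.6, 41.3 and 51.3 normalized reads in wild type and 44.4, 38.4 and 45.1 in pine1. The genotypes overlapped, with the highest value in wild type replicate 3 and the lowest in pine1 replicate 2. The log2 fold change was -0.07 (SE 0.20, 95% interval -0.53 to 0.38, limma adjusted p = 0.88). With 38 to 60 recovered reads per library, the interval held levels from 0.69 to 1.30 times that of wild type.

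D11 (Os04g0469800, chromosome 4) encodes another cytochrome P450 of the pathway, known from a rice dwarf with small grains. Its normalized reads were 244, 284 and 292 in wild type and 255, 275 and 279.7 in pine1. All 3 pine1 values lay inside the wild type range. Of the 8 genes it had the smallest log2 fold change, -0.01 (SE 0.11, 95% interval -0.26 to 0.23, limma adjusted p = 0.96), and changes beyond 1.20-fold lay outside the interval.

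D2 (Os01g0197100, chromosome 1), also a cytochrome P450 of the pathway, was read least. The wild type libraries gave 38.2, 32.7 and 21.4 normalized reads and the pine1 libraries 25.1, 22.2 and 23.7, from 21 to 35 recovered reads each. Wild type replicate 3 was the lowest of all 6 libraries, below every pine1 value, whereas the other wild type libraries were the highest. Its log2 fold change was -0.33, with an SE of 0.28 and a 95% interval from -0.95 to 0.30 (limma adjusted p = 0.56). Without wild type replicate 3 it was -0.56 and without wild type replicate 1 it was -0.16, and neither passed (adjusted p = 0.34 and 0.87).

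BRD1 (Os03g0602300, chromosome 3) encodes the oxidase that completes castasterone, the main active brassinosteroid of rice, and knockouts of it are severe dwarfs. The wild type pools had 762, 747 and 967 normalized reads and the pine1 pools 768, 1192 and 1157. Replicates 2 and 3 of pine1 stood above every wild type library, while pine1 replicate 1 matched the low wild type values. The means were 825 ± 123 and 1039 ± 235 (SD, n = 3 each), and the log2 fold change was 0.31, the highest of the 8 genes, and did not pass (SE 0.17, 95% interval -0.06 to 0.69, limma adjusted p = 0.33). Without pine1 replicate 1 it was 0.52 and passed (limma adjusted p = 0.038). Without any other single library it lay between 0.20 and 0.43 and did not pass.

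The library on which the BRD1 call turned was also the lowest for 1 of the 2 listed root markers, which was lower in every pine1 library. The 2 loci listed as root markers were read in every library and summed to 363 to 594 normalized reads in wild type, 109 in pine1 replicate 1, and 294 and 312 in pine1 replicates 2 and 3. Most of that came from Os02g0662000, with 355, 395 and 589 normalized reads in wild type and 88.9, 268 and 297 in pine1. Every pine1 value of Os02g0662000 lay below every wild type value (log2 -1.18, SE 0.40, limma adjusted p = 0.13). That difference passed only with replicate number as a block (limma adjusted p = 0.019). The other locus, Os01g0704100, went the opposite way: its levels were 7.65, 6.73 and 5.13 normalized reads in wild type and 20.3, 26.3 and 15.8 in pine1. All pine1 values lay above those of wild type (log2 1.52, SE 0.34, limma adjusted p = 0.032), but the call was lost with any 1 library left out (adjusted p 0.053 to 0.12) and in DESeq2 (0.074). With genotype means removed, Pearson r over the 6 libraries was 0.97 between BRD1 and Os02g0662000, and 0.98 between BRI1 and Os02g0662000. Such values were not particular to a root marker. With Os02g0204700, a locus listed for inactivation of the hormone, BRD1 gave 0.95 and BRI1 0.99. With Os01g0704100, BRD1 gave -0.22 and BRI1 -0.43. With genotype means left in, BRD1 gave 0.19 and BRI1 0.28 with Os02g0662000. These are descriptions over libraries that share their depth and scaling. The part of root tissue in the BRD1 values was not tested.

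BRI1 (Os01g0718300, chromosome 1), the receptor, had 8098, 8224 and 8741 normalized reads in wild type and 7987, 9172 and 9746 in pine1. The pine1 libraries held both the lowest value and the top pair. The means of 8354 ± 340 and 8968 ± 897 (SD, n = 3 each) differed by 0.10 on the log2 scale, with an SE of 0.07 and a 95% interval of -0.06 to 0.26 (limma adjusted p = 0.49). Levels above 1.20 times or below 0.96 times that of wild type lay outside this interval. Without pine1 replicate 1, its lowest library, the log2 fold change was 0.18 and the adjusted p 0.11, and without pine1 replicate 3, its highest, they were 0.036 and 0.83.

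GSK2 (Os05g0207500, chromosome 5) encodes a GSK3-like kinase that holds brassinosteroid signalling down by phosphorylating BZR1 and DLT. Wild type libraries had 188, 179.7 and 157 normalized reads and pine1 libraries 169, 149 and 158. The 2 highest values were wild type and the lowest was pine1, with overlap in between. Its log2 fold change was -0.14 (SE 0.13, 95% interval -0.42 to 0.14, limma adjusted p = 0.59).

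BZR1 (Os07g0580500, chromosome 7), a transcription factor that GSK2 inhibits, was the 1 gene of the 8 whose genotypes did not overlap. This was so in 26.4% of all genes tested. Its values were 3008, 3486 and 3443 normalized reads in wild type and 3541, 3911 and 3604 in pine1. The gap between the closest libraries, 3486 and 3541, was smaller than the SD of either genotype (265 in wild type and 198 in pine1). The log2 fold change of 0.16 (SE 0.07, 95% interval 0.002 to 0.31) had an unadjusted p of 0.048 and a limma adjusted p of 0.23, between 0.12 and 0.55 over the 15 other settings.

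DLT (Os06g0127800, chromosome 6), a GRAS-family regulator that promotes the response and is likewise a target of GSK2, was the steadiest of the 8. It had 3276, 3054 and 3100.5 normalized reads in wild type and 3442, 3169 and 3349 in pine1. The highest 2 values were pine1, but pine1 replicate 2 fell within the wild type range. The log2 fold change was 0.08 (SE 0.05, 95% interval -0.04 to 0.20, limma adjusted p = 0.45), the narrowest interval of the 8.

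Counting error and the spread between pools differed widely among the 8 genes. For D2 and DWARF4, counting error alone came to 14.5% to 20.9% of the mean, and for BRI1 to 1.07% in either genotype. The SD between wild type libraries was 4.07% of the mean for BRI1 and 14.9% for BRD1, against counting errors of 1.07% and 3.39%. For both the SD was larger still in pine1, and the pools differed by more than the counting error. For GSK2 the SD was 9.05% in wild type and 6.49% in pine1, close to counting errors of 7.43% and 8.06%. The residual SD on the log2 scale had a median of 0.11 over the 8 genes, from 0.06 for DLT to 0.30 for D2, and 0.13 over all genes tested.

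**Figure D2:**
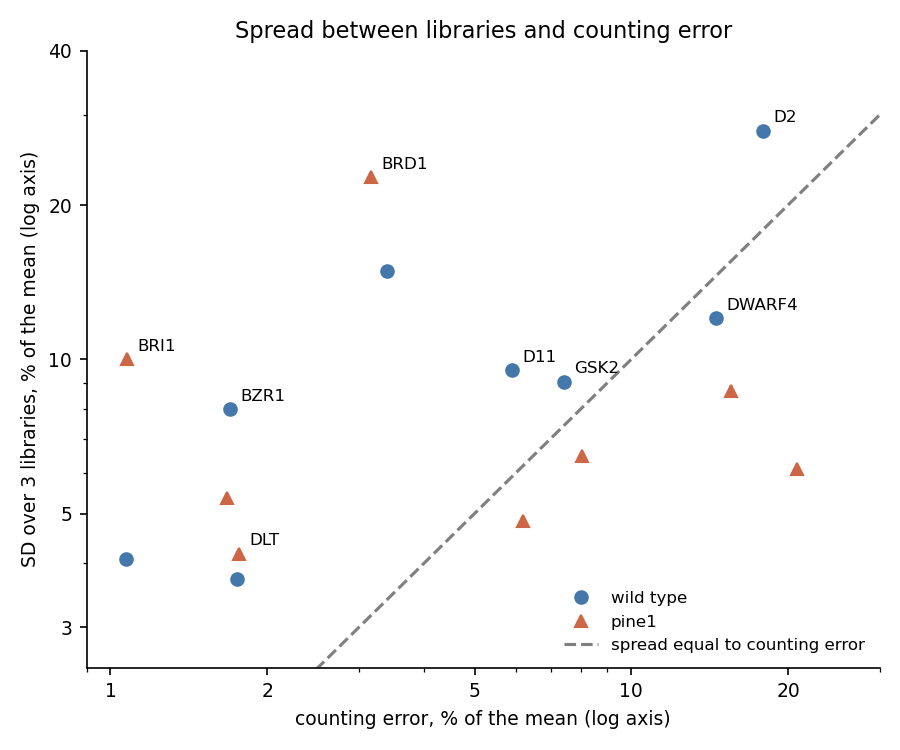
SD over the 3 libraries of a genotype against the counting error expected from the recovered reads, each as a percentage of the mean (log axes), for the 8 genes; names stand at the genotype with the larger SD. BRI1, BRD1, BZR1 and DLT lie above the dashed line of equality in both genotypes, DWARF4 lies below it in both, and D2, D11 and GSK2 lie above it in wild type only.

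The 8 genes did not vary as a block across libraries. Of the 28 pairs, 11 had a Pearson r above 0 over the 6 libraries, with a median of -0.04 and a range of -0.89 to 0.94. These are descriptions over 6 points that share libraries and scaling, and the ends of such a range are chosen from 28. BRD1 and BRI1 gave 0.94, and 0.93 with genotype means removed: pine1 replicate 1 was lowest for both relative to its genotype, by 0.41 and 0.16 on the log2 scale below the genotype mean, and wild type replicate 3 was the highest wild type library for both. GSK2 ran the other way to BRD1 (r = -0.89, and -0.84 with genotype means removed), but its spread between libraries was close to its counting error. D2 and GSK2 gave 0.94, but D2 rests on few reads. BZR1 and DLT showed no relation over the 6 libraries (r = -0.08), yet gave -0.95 with genotype means removed.

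**Figure D3:**
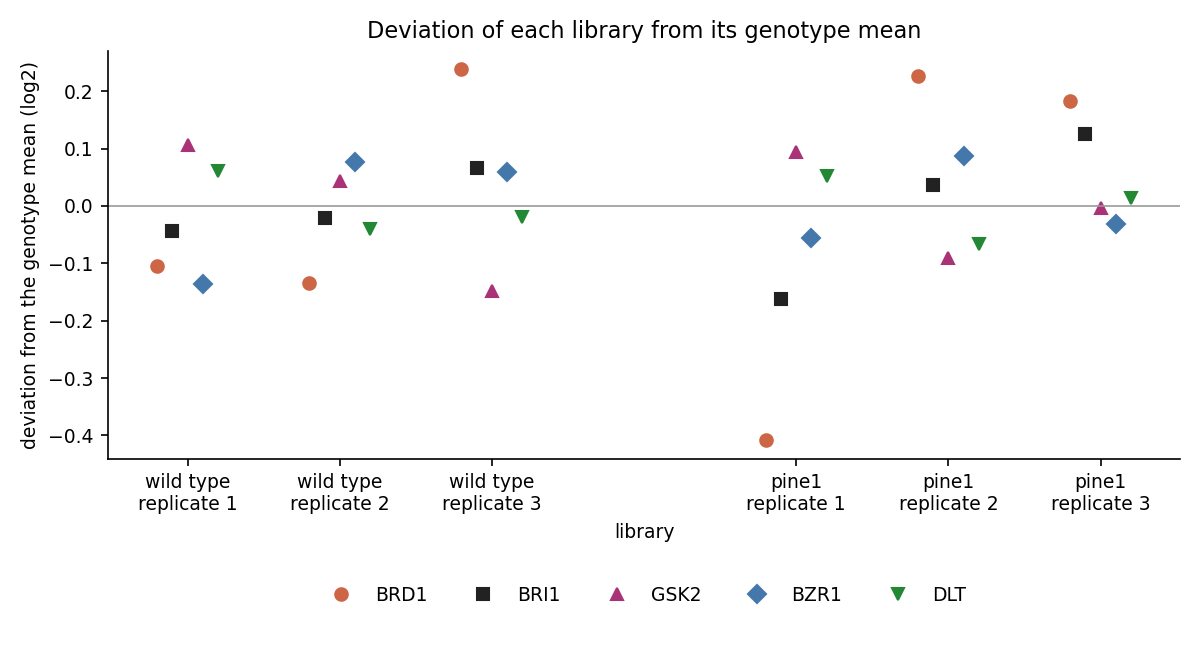
Deviation of each library from the mean of its genotype (log2 scale) for BRD1, BRI1, GSK2, BZR1 and DLT in the 6 libraries. BRD1 and BRI1 are lowest in pine1 replicate 1 (-0.41 and -0.16), where GSK2 lies above its mean (0.09). D2, D11 and DWARF4 are not drawn. Of all 8 genes, 4 lie above and 4 below their genotype mean in pine1 replicate 1.

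The gene closest to BRI1 in pattern was Os06g0652000, with a Pearson r of 0.999 over the 6 libraries, followed by Os04g0459900 (0.999) and Os06g0103500 (0.998). The files give none of these a name. They were selected from 24148 genes, of which 121 had an r above 0.95 with BRI1, and none of the closest 3 passed the test between genotypes (limma adjusted p of 0.51, 0.52 and 0.72).

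Other loci of the pathway were taken from a list of 36, of which 36 were read and 33 passed the filter. The files annotate none of them, so they are given by list and identifier. None was called by limma, edgeR or DESeq2, where 6.46%, 6.49% and 8.18% of all genes tested were. An unadjusted limma p under 0.05 was found at 4 of the 33, against 20.9% of all genes. Their median log2 fold change was -0.01, with a median size of 0.10 against 0.12 over all genes tested, and 15 lay above 0 and 18 below. The genotypes did not overlap at 4 of the 33, against 26.4% of all genes.

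By list, 0 of 4 further synthesis loci passed, with log2 fold changes from -0.002 to 0.49. Among loci listed for inactivation of the hormone, 0 of 3 tested passed, and values ran from -0.38 to 0.46. Of 7 receptor, coreceptor and neighbouring kinase loci 0 passed, between -0.06 and 0.24. The list of further GSK3-like kinases, phosphatases that act on them and 14-3-3 proteins had 0 of 8, between -0.12 and 0.12, the narrowest range of these lists. The 11 regulator loci tested, also 0 called, held the widest, from -0.67 to 0.27. Of the 11, 9 were below 0, against 12075 of 24149 genes tested, but their median was close to 0, at -0.04. Of the pine1 libraries, replicate 1 was the lowest at 19 of the 33 loci, against 33.6% of all genes tested. At the 8 genes, replicates 1 and 2 were each the lowest at 4, and replicate 3 at 0. Over all genes tested, replicate 2 was the lowest at 31.2% and replicate 3 at 35.2%.

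Of the 4 loci with an unadjusted p under 0.05, 1 was higher in pine1 in its mean and 3 were lower. Os05g0389000 had 5013, 4738 and 5043 normalized reads in wild type and 4178, 4710.1 and 4357 in pine1. Every pine1 value was below every wild type value, by a narrow margin at the closest pair (log2 -0.16, SE 0.06, limma adjusted p = 0.14). Os04g0641700 was separated in the same direction, with 198, 206 and 191 in wild type and 119, 163 and 178 in pine1 (log2 -0.39, SE 0.16, adjusted p = 0.21). The genotypes overlapped at Os06g0226500, where wild type had 209.7, 106 and 150.5 and pine1 65.7, 129 and 95.9 (log2 -0.67, SE 0.29, adjusted p = 0.23). Os04g0576900 lay above wild type in every pine1 library (log2 0.18, SE 0.07, adjusted p = 0.17). None of these 4 passed under any of the 15 other settings (14 for Os06g0226500, which the filter of 5 CPM removed), where the lowest adjusted p was 0.078, for Os05g0389000 without pine1 replicate 2.

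**Figure D4:**
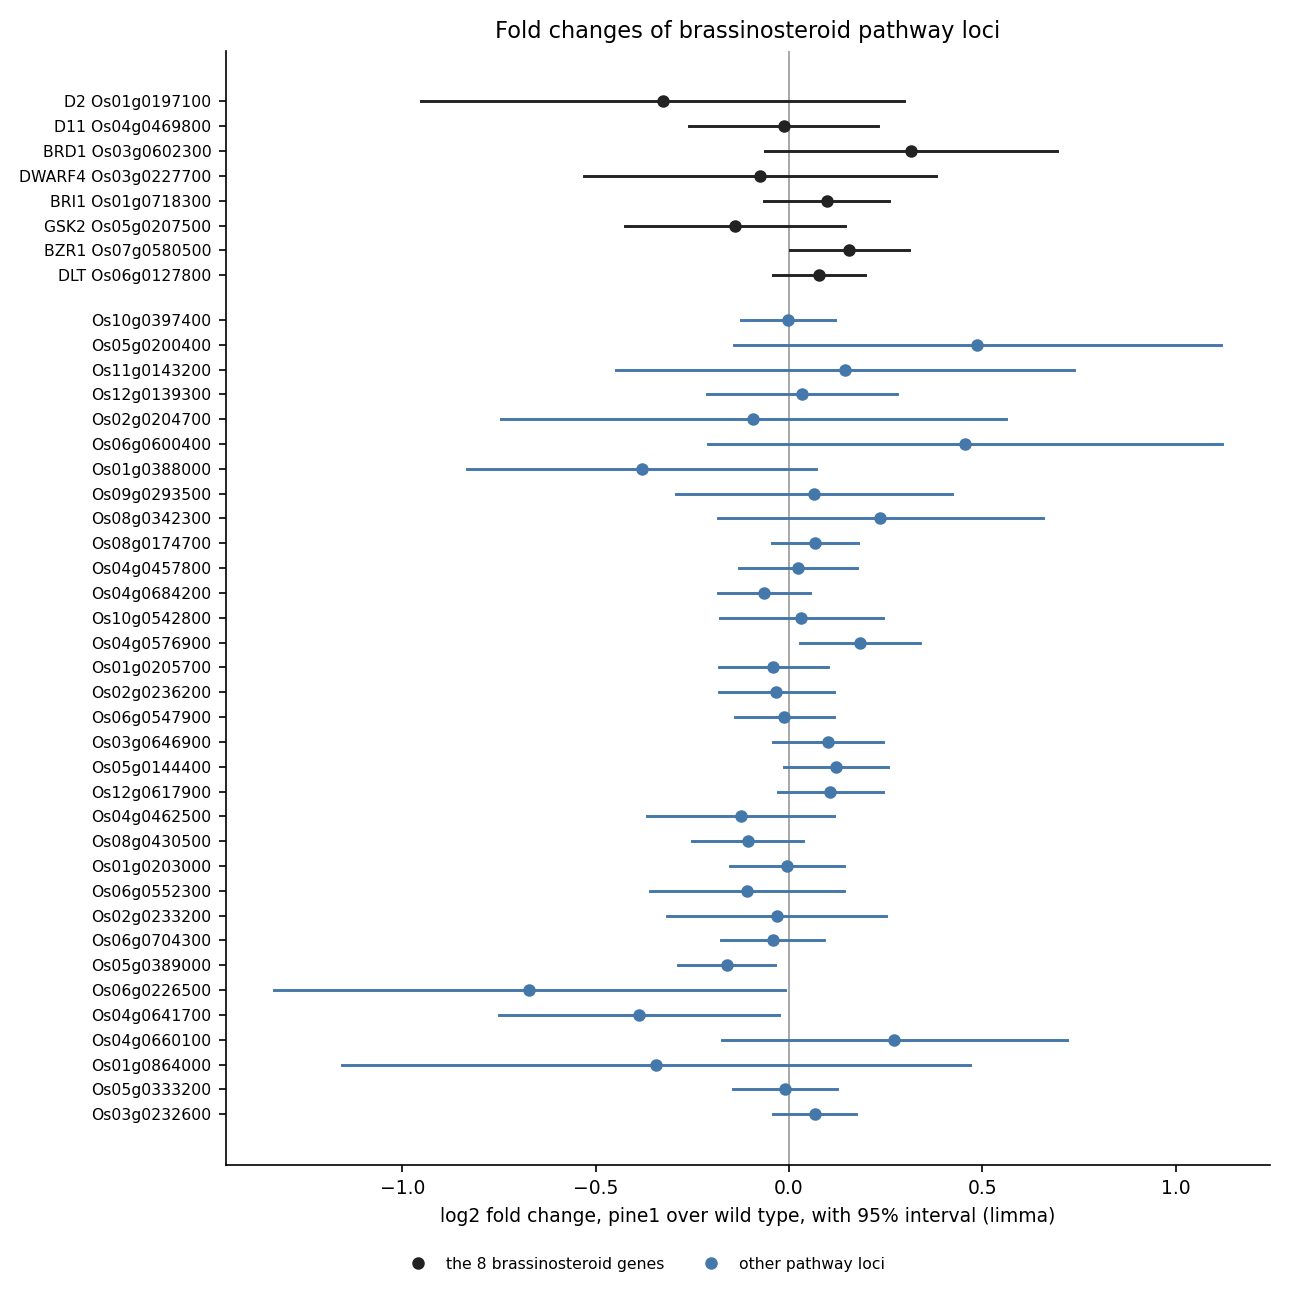
Log2 fold change of pine1 over wild type with its 95% interval (limma, n = 3 libraries per genotype) for the 8 brassinosteroid genes and the 33 other pathway loci tested. The intervals of most loci span 0; the widest belong to loci with few reads or a large spread between libraries, and no locus passed at an adjusted p under 0.05.

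Each of the 8 fold changes ranged more widely over the fits with 1 library left out than over the other settings. Over scalings, pseudocounts and tests, the log2 fold change of BRD1 lay between 0.31 and 0.33 and that of BZR1 between 0.15 and 0.16. The filters and the replicate block cannot move the limma fold change of a gene that is kept, so its steadiness there is no result. Over the 6 left-out libraries, BRD1 ran from 0.20 to 0.52 and BZR1 from 0.09 to 0.19. BRI1, BZR1 and DLT remained above 0 and D2 and GSK2 below 0 under all of these settings that kept them, although none of the 5 passed under any.

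**Figure D5:**
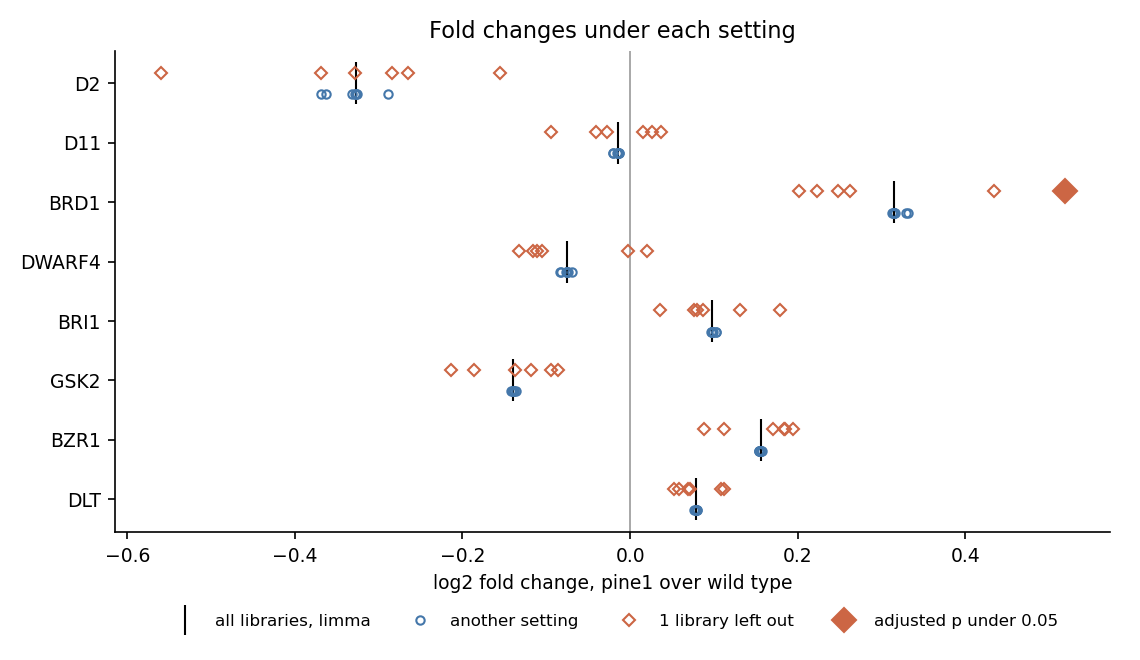
Log2 fold change of pine1 over wild type for each of the 8 genes with all libraries (black bar), under the other settings (circles) and with 1 library left out (diamonds); the filled symbol has an adjusted p under 0.05. The filled symbol is BRD1 without pine1 replicate 1, at 0.52.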

How the data were processed

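RNA was measured by sequencing of oligo(dT)-enriched libraries, per the labels' protocols. Per the submitters' processing notes, the tools were STAR, HTSeq, FastQC and DESeq2, on IRGSP-1.0. Not given in the sources used here are versions, the strand setting and the treatment of reads shared between related genes. In the sheet, 2 tables stand one above the other. The upper holds a signal per gene and library, gene counts divided by 1 size factor per library by the authors; 100% of values were whole multiples of 1 step, within 0.001 reads. Deposited library columns that share cells with the lower table hold the same normalized reads and were classed here as score, for the check of units only. The lower, with 1962 genes, gives the authors' log2 fold changes, standard errors and p-values, per the file headers. Genes whose recovered reads sum to under 10 are not in the upper table and were not analysed here.

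limma was fitted by genotype to log2(normalized reads + 1) with an intensity trend, on genes kept by filterByExpr (minimum count 10), with Benjamini-Hochberg adjustment over all genes tested. Fold changes are on that scale, which understates those of genes with few reads. edgeR (quasi-likelihood) and DESeq2 were run on recovered reads as alternatives, and the scripts were tested on simulated data. Changes were simulated only in genes with more reads than D2, DWARF4 or GSK2. Recovery was required only for changes larger than any of the 8 genes showed. Counting error is 1 over the square root of the mean recovered reads; it covers counting only, since reads carried no molecular identifiers. Levels are not compared between genes, since transcript lengths were not used here. The 8 genes and the lists, written from knowledge of rice genes, were chosen with earlier results of these data known. Named are all 8 genes and any other pathway locus called. Since none of the 8 was called, the 3 genes closest to BRI1 in pattern are named too. The 4 loci with an unadjusted p under 0.05, the leaf marker loci, Os01g0704100, Os02g0204700 and Os02g0662000 were named after their values were seen. The RefSeq gene table at hand (assembly ASM3414082v1) matched 0 of the 54 listed loci. Sequences are not printed, and chromosomes are those in the locus identifiers. Same-numbered samples were not paired. Versions were limma 3.58.1, DESeq2 1.42.0 and edgeR 4.0.16 under R 4.3.3, and numpy 2.4.6, pandas 2.3.3 and matplotlib 3.10.9 under Python 3.11.15.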

Additional observations from a re-analysis of the deposited data

How the results depend on the processing

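Of the 8 genes, 0 were called lower and, apart from BRD1 without pine1 replicate 1, 0 higher under any of the 15 alternatives; the count of higher calls ranged from 0 to 1 over the left-out libraries. No other pathway locus was called under any. D11 changed sign with left-out libraries (log2 -0.094 to 0.037), as did DWARF4 (-0.13 to 0.020). Over all genes, 970 higher and 589 lower calls became 570 to 760 and 266 to 550 with 1 library left out, and 573 higher with a filter of 5 CPM, which kept 16529 genes, without D2 and DWARF4. Same-numbered samples correlated at 0.055, 0.022 and 0.134 in their deviations from the genotype means, and not every sample correlated best with its own number. With the replicate block 1195 genes were higher and 799 lower, and the block changed no call among the 8 genes, BRD1 having an adjusted p of 0.14. For D2, with 21 to 35 reads per library, the interval spans levels of 0.52 to 1.23 times that of wild type; its wild type SD was 27.9% of the mean and its counting error there 17.9%.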

Other observations

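Genes with a brassinosteroid description can be found only in the authors' deposited table, whose 1962 genes were selected by a test on these libraries, so their directions are no independent evidence. There are 5, chosen after their values were seen, of which limma called 2 higher and 3 lower in pine1. GW5 (Os05g0187500), a calmodulin-binding protein described in the authors' deposited table as promoting brassinosteroid signalling, is known in rice as an inhibitor of the kinase GSK2. It had 591, 579.5 and 610.3 normalized reads in wild type and 787, 778 and 713 in pine1. Every pine1 library lay above every wild type library, and GW5 rose by 0.35 on the log2 scale (SE 0.07, limma adjusted p = 0.020). The call was lost without any library but pine1 replicate 3, with adjusted p values from 0.052 to 0.076.

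SGL1 (Os02g0762600), which the authors' deposited table relates to SHORT GRAIN1 and to brassinosteroid signalling, had 962, 930.4 and 976 normalized reads in wild type and 669.6, 803 and 691 in pine1. It fell by 0.41 on the log2 scale (SE 0.08, limma adjusted p = 0.018), with no overlap between genotypes. Leaving out wild type replicate 1 (adjusted p = 0.072), wild type replicate 3 (0.067) or pine1 replicate 3 (0.058) ended that call.

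The other 3 are kinases named by likeness to the BRI1-associated receptor kinase, and whether they act with BRI1 was not checked. SEPK1 (Os06g0274300) fell by 0.53 (SE 0.12, limma adjusted p = 0.033), from 823, 639 and 586 normalized reads to 469.6, 454 and 483. OsRLCK64 (Os02g0186500) rose by 0.27 (SE 0.06, adjusted p = 0.022) and OsBAK1-10 (Os03g0266800) fell by 0.19 (SE 0.05, adjusted p = 0.046). Of the 6 fits that leave out 1 library, 5 ended the call of SEPK1 (adjusted p up to 0.094), 5 that of OsRLCK64 (up to 0.088) and 5 that of OsBAK1-10 (up to 0.16). The call of OsBAK1-10 was lost too with edgeR (0.0503), with the filter of 5 CPM (0.053) and with the replicate block (0.070).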
